A study of Mus musculus with 3 samples.

Results

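The cells described here are the secretory colonocytes of the mouse anorectal junction, the mucus-producing cells that share the columnar lining of the distal colon with absorptive colonocytes. They were taken as every cell that the authors' deposited cell table names "Colonocytes - Secretory". That name covers 1 of the authors' 29 clusters, and 693 of 37080 cells carried it. The library of day 0 held 479 of them, that of day 7 held 35 and that of day 42 held 179.

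The study used single-cell RNA sequencing to follow the junction between rectum and anus before, during and after an acute colitis. Distal colon and anus were collected from C57Bl/6 mice bought from Jackson and used at 6 weeks of age, and tissue of 5 mice was pooled for each library. Day 0 mice were untreated. Day 7 and day 42 mice had drunk 3% dextran sulfate sodium (DSS, a polymer that injures the gut lining) for 6 days, and the labels call day 7 severe colitis and day 42 recovered. Cells of all 3 libraries were freed with trypsin-EDTA, depleted of dead cells by Annexin V, captured with the 10X 3′ chemistry and sequenced on an Illumina HiSeq. There was 1 library per day, so day, treatment, mice and library cannot be told apart and no difference between days was tested.

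Secretory cells of the colon descend from crypt stem cells that escape Notch signalling and switch on the transcription factor Atoh1. Most become goblet cells, which pack the gel-forming mucin Muc2 with partner proteins into granules and release them to keep bacteria away from the epithelium. Cells that carry Reg4 and Kit sit among the stem cells at the crypt base and supply them with Notch ligands, while mature goblet cells nearer the surface carry Zg16. Goblet cells also release antimicrobial proteins such as the resistin-like protein Retnlb and the ribonuclease Ang4, both known to be induced by infection and by type 2 cytokines.

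Ang4, Mptx1, Reg4 and Muc2 were each higher at day 42 than at day 0 in these cells, and the 250 bases before their starts are shown as the regulatory sequence nearest to those differences. The sequences come from RefSeq on GRCm38.p6 and are written 5′ to 3′ on the strand of the gene. Capitals mark letters that match 1 of 6 motifs searched on both strands. These were an E box of the kind Atoh1 binds (CAGCTG), a CDX site (TTTATG), a STAT6 site (TTC and GAA with 4 bases between them), a FOXA site (TNTTTAC), an AP-1 site (TGANTCA) and a GATA site (AGATAA). Of 12 genes looked for, 7 had an entry, and Zg16, Spink4, Tff3, Clca1 and Retnlb are named only.
Ang4, chr14:51773591-51773840, minus strand: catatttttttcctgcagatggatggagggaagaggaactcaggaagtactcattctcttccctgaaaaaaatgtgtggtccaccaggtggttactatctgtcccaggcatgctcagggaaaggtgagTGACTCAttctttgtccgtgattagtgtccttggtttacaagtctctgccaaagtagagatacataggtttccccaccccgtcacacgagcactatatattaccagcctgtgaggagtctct
Mptx1, chr1:174330268-174330517, plus strand: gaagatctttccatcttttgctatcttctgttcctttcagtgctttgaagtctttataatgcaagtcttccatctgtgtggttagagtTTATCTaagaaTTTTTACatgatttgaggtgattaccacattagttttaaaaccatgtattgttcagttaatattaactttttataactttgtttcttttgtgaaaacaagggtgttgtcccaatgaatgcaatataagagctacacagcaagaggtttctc
Reg4, chr3:98221906-98222155, plus strand: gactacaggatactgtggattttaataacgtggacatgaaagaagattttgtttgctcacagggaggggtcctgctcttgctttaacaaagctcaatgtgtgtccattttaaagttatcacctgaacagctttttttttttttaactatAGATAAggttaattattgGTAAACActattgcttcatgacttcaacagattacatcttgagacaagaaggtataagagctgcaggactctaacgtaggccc
Muc2, chr7:141690090-141690339, plus strand: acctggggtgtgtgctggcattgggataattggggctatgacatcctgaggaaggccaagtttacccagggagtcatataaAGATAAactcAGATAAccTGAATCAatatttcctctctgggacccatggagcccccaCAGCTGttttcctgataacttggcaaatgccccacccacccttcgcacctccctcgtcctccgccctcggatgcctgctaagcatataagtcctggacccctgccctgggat
The Ang4 window held an AP-1 match beginning at position -122 from the start. The Mptx1 and Reg4 windows each held a FOXA and a GATA match, at -151 and -162 in Mptx1 and at -83 and -101 in Reg4. The Muc2 window held the E box at -112, an AP-1 match at -151 and GATA matches at -169 and -159. Among 32536 windows of the same length, 13.1% held the E box, 10.8% the CDX letters, 5.89% the STAT6 letters, 10.9% the FOXA letters, 6.73% the AP-1 letters and 9.97% the GATA letters. A match describes letters in the window and is not evidence of binding.

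Levels are given as CPM, the unique molecular identifiers (UMIs) of a gene summed over the secretory cells of a library, per 1000000 of all their UMIs. Those totals were 3514990, 217125 and 1191234 UMIs at days 0, 7 and 42. Intervals in parentheses are exact 95% Poisson intervals for sums and exact Clopper-Pearson intervals for shares of cells, and they cover counting error only, not the spread between mice. Days are compared as the log2 ratio of CPM with 10 CPM added to both, and a gene counts as higher or lower when that ratio reaches 1 or -1. In a gene list, the measured genes are those that reached 20 CPM in a library being compared. Shares and medians over all genes cover those that reached 50 CPM, so a list can count genes that these leave out. A sum cannot tell fewer cells making an RNA from less RNA per cell. RNA quality differed between the libraries. Mitochondrial transcripts made up a median of 20.7% of a secretory cell's UMIs in the library of day 0, 33.2% in that of day 7 and 9.62% in that of day 42, and the median cell held 5499, 3334 and 6394 UMIs. No cell barcode was shared between secretory cells of any pair of libraries.

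The name was checked against 6 goblet cell genes, Muc2, Zg16, Spink4, Tff3, Fcgbp and Reg4. In every library all 6 were at their highest in the secretory class among the classes with at least 50 cells, of which there were 10 others at days 0 and 7 and 8 others in the last library. Their level was 16.6 to 52.0 times that of the next class before DSS, 214 to 1533 times in colitis (day 7) and 52.8 to 153 times after recovery (day 42). Muc2 gave at least 1 UMI in 69.3%, 97.1% and 92.9% of secretory cells at days 0, 7 and 42 once each cell was thinned to 1000 UMIs, which left out 7, 1 and 23 shallower cells. Unthinned, the shares were 86.6%, 97.1% and 95.5%. T cells, which do not make mucin and had median depths of 2064, 2260 and 1393 UMIs, gave thinned shares of 2.05%, 0.926% and 1.11%, read here as the background of free RNA.

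Against the class named Colonocytes, the secretory class was set apart by granule proteins. The Colonocytes, 6253 cells, join the authors' clusters 2 (3711 cells), 7 (2254 cells) and 22 (288 cells). The classes were made by clustering these same genes, so the ratios describe the class and are not a test. Of 2586 genes compared, 106 (4.1%) were at least 1 log2 unit higher in secretory cells in every library and 108 (4.18%) at least 1 lower. In order of their lowest ratio over the 3 libraries, the leading genes were the pentraxin Mptx1 with 7.88, the Kazal-type inhibitor Spink4 with 7.14 and Sval1 with 6.93. Muc2, the mucin itself, followed with 6.76, its cross-linking partner Fcgbp with 6.45, the trefoil peptide Tff3 with 6.36, the lectin-like Zg16 with 6.22 and the mucus-processing protease Clca1 with 6.15. The calcitonin receptor partner Ramp1 (5.48), Spink1 (5.10), the colipase Clps (5.05), Hepacam2 (4.81), the endosomal protein Rep15 (4.44), the bicarbonate channel Best2 (4.23), the mucin core glycosyltransferase Gcnt3 (4.16), Bcas1 (4.14) and Reg4 (4.08) came next. The place of Reg4 rests on 35 UMIs of day 7, of which 91.4% lay in 6 cells, and its lowest ratio was -0.017 without the 10 largest cells. The same 6 cells held 97.0% of the Mptx1 UMIs of day 7. Without them Mptx1 stood at 225 CPM at day 7 in place of 3192, beside 0.93 CPM in Colonocytes, so its first place depends on them. Gm1123 (3.94), the granule-docking protein Sytl2 (3.70) and Hpd (3.50) closed the 20 highest.

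Gene lists divided between the classes in both directions. In the list of mucus gel proteins and membrane mucins, 10 of 12 measured genes were at least 1 log2 unit above Colonocytes in every library, beside 4.1% of all genes above and 4.18% below, and the counts of the other lists stand beside the same shares. Muc3, a membrane mucin of absorptive cells, was the 1 gene of that list below them. Among fate factors, 7 of 15 were above Colonocytes in every library and none below: Atoh1, Spdef, Creb3l1, Creb3l4, Foxa2, Foxa3 and Xbp1. Mucin glycosylation gave 8 of 22 above (Galnt12, Galnt5, Galnt7, Gcnt3, St3gal6, St6gal1, Fut2 and Fut8) and none below. Endoplasmic reticulum genes gave 3 of 26, Pdia5, Ern2 and Herpud1. The median over all 2586 genes was -0.15, -0.41 and -0.10 at days 0, 7 and 42. In the other direction, 11 of 17 absorptive genes were at least 1 log2 unit below Colonocytes in every library. So were 5 of 9 genes of the intercrypt goblet list (Dmbt1, Gsdmc2, Gsdmc3, Gsdmc4 and Aqp8), with 1 above, Fer1l6. Of 11 antimicrobial and defence products 7 were below (Lypd8, Il18, Wfdc2, Dmbt1, Gsdmc2, Gsdmc3 and Gsdmc4) and 2 above, Mptx1 and Slpi. Car1, a carbonic anhydrase of surface colonocytes, stood at 34.1 CPM at day 0, 41.5 CPM at day 7 and 73.0 CPM at day 42 in secretory cells and at 631 CPM at day 0, 1856 CPM at day 7 and 1012 CPM at day 42 in Colonocytes. Guca2a, which encodes the peptide guanylin, did not follow the absorptive genes. It stood at 525 CPM at day 0, 147 CPM at day 7 and 566 CPM at day 42 in secretory cells and 199 CPM at day 0, 609.7 CPM at day 7 and 457 CPM at day 42 in Colonocytes, so it was higher in secretory cells at day 0 and lower at day 7.

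Within the class the cells spread between an end marked by Reg4 and an end marked by Zg16. To compare cells of unlike depth, each was thinned to 2000 UMIs, which kept 432, 30 and 123 cells and left out 47, 5 and 56. At day 0, 60.6% of cells (55.9 to 65.3) held a Reg4 UMI and no Zg16 UMI, 19.4% (15.8 to 23.5) held Zg16 alone, 6.25% (4.16 to 8.96) held both and 13.7% neither. At day 42 the Reg4-only share was 62.6% (53.4 to 71.2) and the Zg16-only share 15.4% (9.56 to 23.1), and both intervals overlapped those of day 0. The share with both was 17.9% (11.6 to 25.8) at day 42, and its interval did not overlap that of day 0. At day 7 no thinned cell held Reg4 (exact interval 0 to 11.6%), and 26 of 30 held Zg16 alone. Unthinned, 4 of the 35 cells held Reg4 (11.4%, 3.20 to 26.7), so its absence depends on the draw of UMIs. The cut at 2000 UMIs did not fall evenly. At day 42, cells without a Reg4 UMI unthinned had a median of 1426 UMIs, and those with one 8187. After the cut, 289 of 432 cells at day 0 and 99 of 123 at day 42 held Reg4. Unthinned, 328 of 479 and 112 of 179 did. Thinned to 1000 UMIs, 236 of 472 (45.4 to 54.6%) and 77 of 156 (41.3 to 57.5%) held Reg4 alone. Zg16 alone was held by 114 of 472 (20.4 to 28.3%) and 39 of 156 (18.4 to 32.6%).

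**Figure D1:**
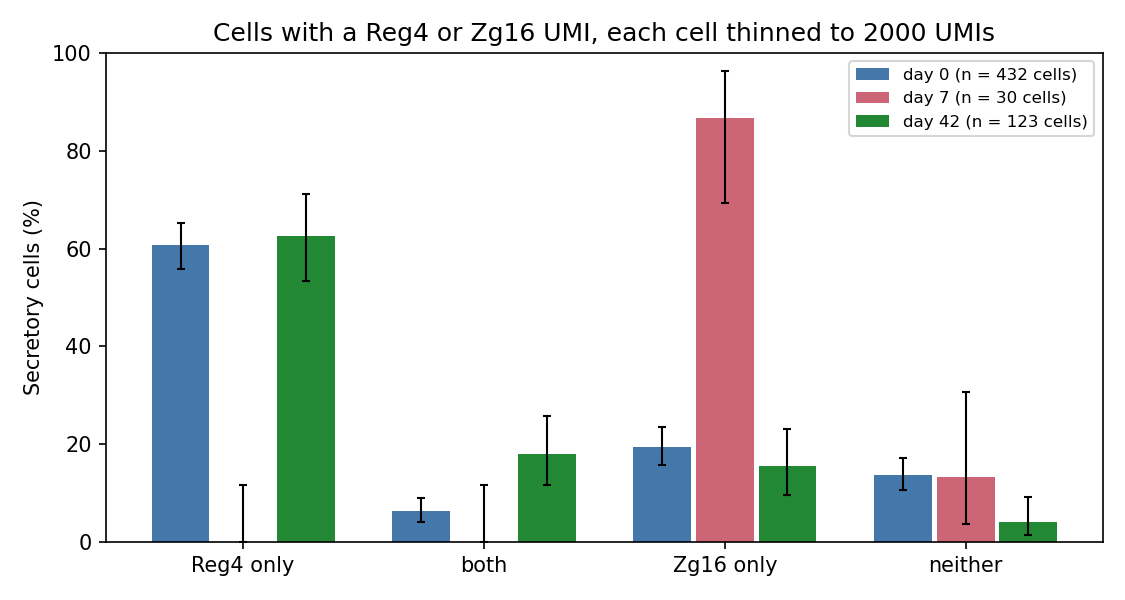
Share of secretory cells (%, vertical axis) with a Reg4 UMI only, both genes, a Zg16 UMI only or neither, after each cell was thinned to 2000 UMIs, with 1 bar per library and exact Clopper-Pearson 95% intervals. Reg4-only cells made up 60.6% at day 0 and 62.6% at day 42 and none of the 30 cells at day 7, where 86.7% held Zg16 only. Cells with fewer than 2000 UMIs are left out, and at day 42 cells without a Reg4 UMI had a median of 1426 UMIs.

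The same genes marked the 2 ends at days 0 and 42. At day 0, Zg16 was found in 9.34% of cells with Reg4 (6.25 to 13.3) against 58.7% of cells without it (50.2 to 66.9). At day 42 the shares were 22.2% (14.5 to 31.7) and 79.2% (57.8 to 92.9), again without overlap. Saa1, the acute-phase protein serum amyloid A, lay at the Zg16 end: it was found in 0.346% of Reg4 cells and 37.1% of the others at day 0, and in 2.02% and 70.8% at day 42. Its reads may be shared with the near-identical Saa2. Guca2a lay at the Reg4 end, with 66.1% of Reg4 cells against 16.8% of the others at day 0 and 75.8% against 16.7% at day 42.

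Rank correlations over the thinned cells describe the same order, over cells that share a library and a depth. Reg4 went with Spink4 (Spearman rho 0.67 over 432 cells at day 0 and 0.69 over 123 cells at day 42) and with Mptx1 (0.55 and 0.39). Reg4 ran against Zg16, with rho -0.52 and -0.64. Zg16 went with Muc2 in all 3 libraries, with 0.62, 0.74 over 30 cells at day 7, and 0.59. At days 0 and 42 Muc2 and Saa1 (0.67 and 0.64 with Zg16) therefore lay toward the Zg16 end of the class, and Spink4 and Mptx1 toward the Reg4 end. At day 7 this order was not seen: Zg16 went with Spink4 (0.70) and Mptx1 (0.33) as well as with Saa1 (0.59).

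Between day 0 and day 42 most genes of the secretory cells were at like levels. Of 2955 genes that reached 50 CPM in 1 of these libraries or both, 76 (2.57%) were at least 1 log2 unit higher at day 42 and 23 (0.778%) at least 1 lower, and the median over all of them was 0.068. The split depended on the scaling. With median-of-ratios size factors it was 63 higher and 35 lower, and with totals that left out mitochondrial and ribosomal protein genes 82 and 70. Colonocytes of the same libraries, with 2996 genes compared, gave 72 higher (2.4%) and 16 lower (0.534%).

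The mucus proteins Clca1, Spink4 and Muc2 were each more than 1 log2 unit higher at day 42 than at day 0. Muc2 stood at 2993 CPM (2936 to 3050.4) at day 0, 17289.6 CPM (16741 to 17852) at day 7 and 6917 CPM (6769 to 7068) at day 42. Both later libraries lay above day 0, and day 7 lay above day 42. The log2 ratio of day 42 to day 0 was 1.21, and in Colonocytes, where Muc2 stood at 17.8 and 33.3 CPM, it was 0.64. Clca1, the protease that loosens the mucus gel, stood at 2044 CPM (1997 to 2092) at day 0, 6899 CPM (6554 to 7258) at day 7 and 6721 CPM (6574 to 6869.6) at day 42. Its log2 ratio of 1.71 at day 42 was close to the 1.75 of day 7, but 6 cells held 74.5% of the day 7 UMIs and without them the day 7 ratio was 0.996, below the fold used. Spink4 stood at 4769 CPM (4697 to 4841) at day 0, 11344 CPM (10900.1 to 11801) at day 7 and 12654 CPM (12453 to 12858) at day 42, with a log2 ratio of 1.41 at day 42.

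The granule proteins Fcgbp, Zg16 and Tff3, and the folding enzyme Agr2, had day 42 ratios under 1 when UMIs were summed. Fcgbp stood at 2978 CPM at day 0, 11708 CPM at day 7 and 5180.3 CPM at day 42, a log2 ratio of 0.80 at day 42. Zg16, which binds Gram-positive bacteria in the mucus, stood at 4315 CPM at day 0, 35924 CPM at day 7 and 6549.5 CPM at day 42. Its log2 ratio was 3.05 at day 7 and 0.60 at day 42. Tff3 stood at 3437 CPM at day 0, 17773 CPM at day 7 and 4704 CPM at day 42 (0.45 at day 42), and Agr2, the disulfide isomerase that folds Muc2, at 4579 CPM at day 0, 5812 CPM at day 7 and 7402 CPM at day 42 (0.69). At day 7, 86.1% of the Agr2 UMIs lay in 6 cells, and without them its ratio to day 0 turned from 0.34 to -1.28. When the CPM of single cells was averaged in place of summing UMIs, the day 42 ratios were 1.37 for Fcgbp and 1.24 for Tff3, past the fold used, beside 1.35 for Muc2 and 1.37 for Spink4.

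Over the whole mucus gel list, 5 of 14 measured genes were at least 1 log2 unit higher at day 42 (Muc2, Clca1, Spink4, Muc3 and Itln1), against 2.57% of all genes, and none was lower. The median of the list was 0.90, against 0.068 over all genes, and 11 of the 14 were above 0. In Colonocytes none of 10 measured genes of the list was past 1, against 2.4% of all genes there, and the median was 0.43 against 0.038. Of the other members, the membrane mucin Muc1 stood at 25 CPM at day 0, 226 CPM at day 7 and 16.8 CPM at day 42, so it was high at day 7 alone, and Itln1, an intestinal lectin, stood at 6.26 CPM at day 0, 4.61 CPM at day 7 and 56.2 CPM at day 42. The 6 marker genes together took 2.07%, 9.42% and 4.10% of all secretory UMIs at days 0, 7 and 42. In the median cell they took 1.37%, 4.25% and 3.97%, so the median cell too held a higher share at day 42. In cells that passed a quality filter (1000 UMIs and 500 genes or more, and no more than 20% mitochondrial), the day 42 ratios were 1.31 for Muc2, 1.63 for Clca1 and 1.34 for Spink4.

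**Figure D2:**
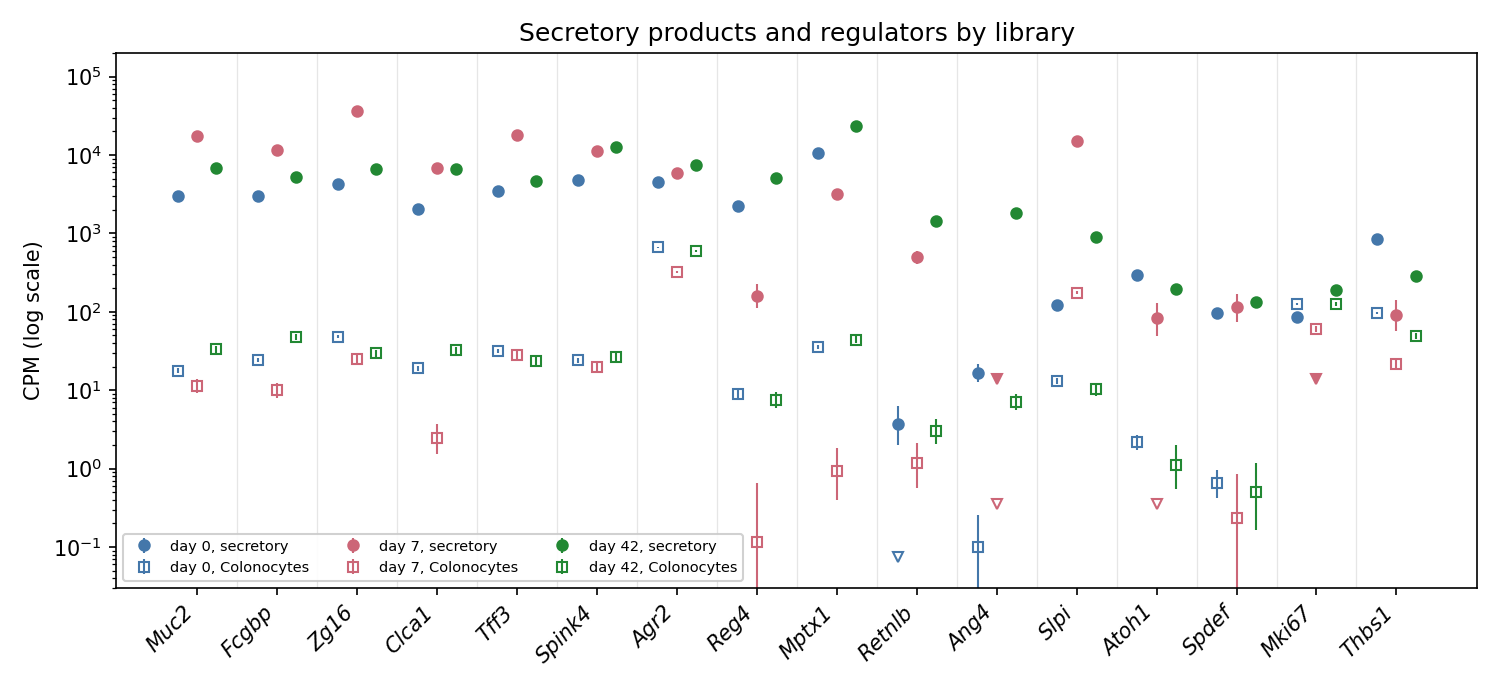
Level of 16 genes in CPM (vertical axis, log scale) in each library, with filled circles for secretory colonocytes and open squares for Colonocytes, bars for exact Poisson 95% intervals, and triangles at the floor of 3 counts where no UMI was found. Retnlb and Ang4 show the widest gap between day 0 and day 42 of the secretory cells, Muc2, Clca1 and Spink4 a smaller one, and Atoh1 and Spdef none past 1 log2 unit.

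The widest differences of day 42 were in secreted defence proteins. Retnlb stood at 3.70 CPM (1.97 to 6.32) at day 0, 497 CPM (408 to 601) at day 7 and 1424 CPM (1357 to 1493) at day 42, from 13, 108 and 1696 UMIs. It was low at day 0 and high in both libraries after DSS, with log2 ratios of 5.21 at day 7 and 6.71 at day 42. At day 7, 10 cells held 99.1% of the Retnlb UMIs, and the ratio without the 6 largest cells of that day was 2.80. In Colonocytes it stood at 0 CPM at day 0, 1.16 CPM at day 7 and 3.03 CPM at day 42. Ang4 stood at 16.5 CPM (12.5 to 21.3) at day 0, from 58 UMIs, and 1842 CPM (1766 to 1920.5) at day 42, from 2194 UMIs. No Ang4 UMI was found among the 35 cells of day 7, which allows up to 13.8 CPM by the floor of 3 counts and 17.0 CPM by the exact interval, the second of these above the day 0 level. So Ang4 was high at day 42 alone, with a log2 ratio of 6.13, and Retnlb at both later days.

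These RNAs came from a good part of the class. With cells thinned to 1000 UMIs, Ang4 was found in 1.48% of cells at day 0 and 31.4% at day 42, and Retnlb in 0.424%, 11.8% (4 of 34 cells, 3.30 to 27.5) and 37.2% at days 0, 7 and 42. A second draw of 1000 UMIs per cell gave Retnlb in 2 of 34 cells at day 7 (5.88%, 0.720 to 19.7). Unthinned, Ang4 was found in 4.38% and 41.9% at days 0 and 42, and Retnlb in 1.67%, 31.4% and 53.1% at days 0, 7 and 42. T cells gave 1.11% for each of the 2 genes at day 42 and no cell at days 0 and 7. The 10 cells with most UMIs held 56.0% of all Ang4 UMIs and 48.1% of all Retnlb UMIs at day 42. The genes named Ang4 and Retnlb belong to families of close copies, and how reads shared with other family members were counted is not given in the sources used here.

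The same cells carried both. Among cells of day 42 thinned to 2000 UMIs, Retnlb was found in 47 of 55 cells with Ang4 (85.5%, 73.3 to 93.5) and in 15 of 68 without it (22.1%, 12.9 to 33.8). Their rank correlation over the 123 cells was 0.71. Ang4 also went with Clca1, found in 89.1% of Ang4 cells (77.8 to 95.9) and 44.1% of the others (32.1 to 56.7). Position between the Reg4 and Zg16 ends made less difference: Ang4 was found in 42.4% of Reg4 cells (32.5 to 52.8) and 54.2% of the others (32.8 to 74.4), and its rank correlation with Reg4 was 0.017. Retnlb gave 50.5% (40.3 to 60.7) and 12 of 24 (29.1 to 70.9).

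Ang4, Retnlb and Clca1 were past 1 at day 42 both in cells with and in cells without a Reg4 UMI. Without thinning, 328 cells of day 0 and 112 of day 42 held a Reg4 UMI, and 151 and 67 held none. The cells without were shallower, with medians of 2892 and 1426 UMIs against 7658 and 8187. Their median mitochondrial shares were higher, at 27.9% and 14.1% against 17.1% and 9.05%. This was a split by detection, chosen after seeing the data. In Reg4 cells Muc2 stood at 2084 CPM at day 0 and 5885 CPM at day 42, Clca1 at 1130.3 and 4615 CPM, and Zg16 at 557 and 1838 CPM. In cells without Reg4, Muc2 stood at 7779 and 14678 CPM, Clca1 at 6855 and 22561 CPM, and Zg16 at 24103 and 41982 CPM. Ang4 stood at 19.6 and 1740.5 CPM in Reg4 cells and at 0 and 2604 CPM in the others. Among cells without a Reg4 UMI the ratios were 0.92 for Muc2 and 0.80 for Zg16, below the fold used here.

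**Figure D3:**
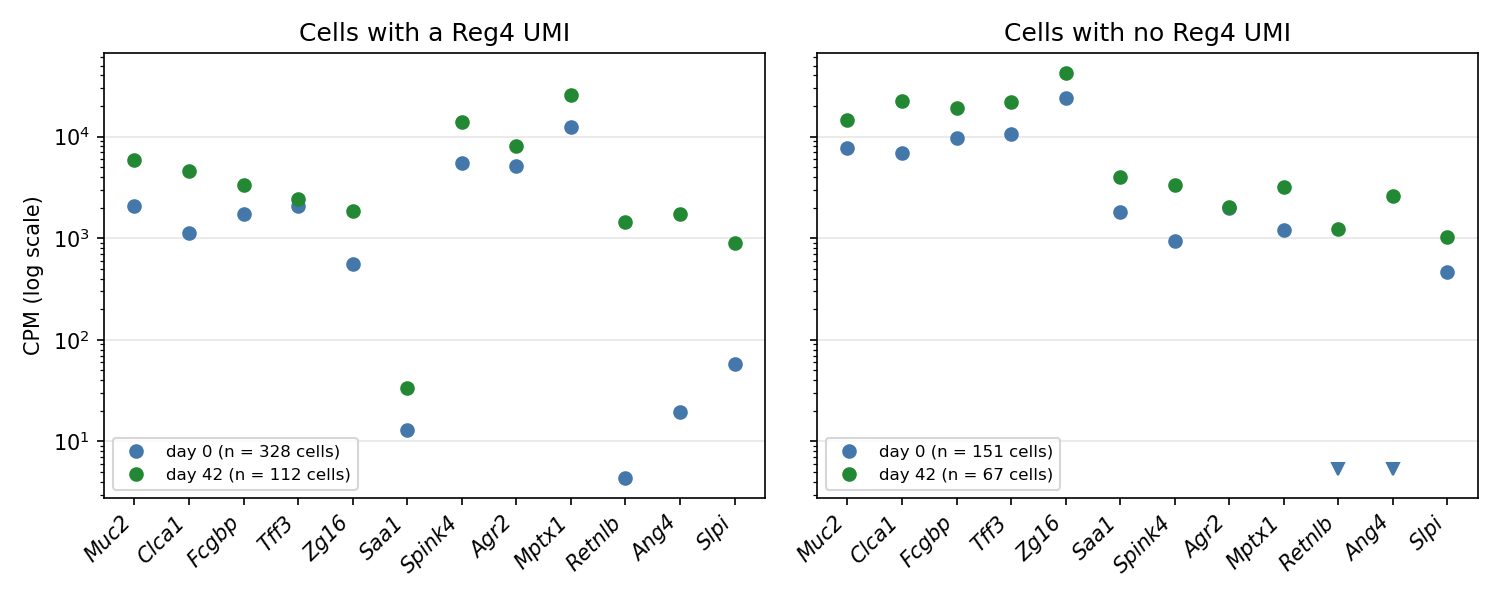
RNA level of 12 genes in CPM (vertical axis, log scale) at day 0 and day 42, summed over secretory cells with a Reg4 UMI (left) and with none (right), with triangles at the floor of 3 counts where no UMI was found and no interval drawn. Ang4 and Retnlb are far higher at day 42 in both panels, and the Zg16 and Saa1 points are far higher in the right panel on both days.

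Slpi, a secreted inhibitor of neutrophil proteases, had its peak at day 7 and was still above day 0 at day 42. It stood at 123 CPM (112 to 135) at day 0, 15153 CPM (14639 to 15679) at day 7 and 907 CPM (853 to 962) at day 42, with log2 ratios of 6.83 and 2.79. In cells with a Reg4 UMI the day 42 ratio was 3.73, from 57.5 and 889 CPM at days 0 and 42. In cells with none it was 1.13, from 467 and 1037 CPM. Colonocytes gave 13.2 CPM at day 0, 175 CPM at day 7 and 10.3 CPM at day 42. Neutrophils, which also make Slpi, stood at 3653 CPM at day 7, below the secretory cells, and at 3708 CPM at day 42, above them. Transcripts of 18 leukocyte genes made up 0.000626%, 0.0226% and 0.00596% of secretory UMIs at days 0, 7 and 42. Mptx1, a pentraxin of the gut mucosa, stood at 10706 CPM at day 0, 3192 CPM at day 7 and 23219.6 CPM at day 42. At day 7, 97.0% of its UMIs lay in 6 cells, and without them it stood at 225 CPM, a ratio of -5.51 to day 0. Its day 42 ratio of 1.12 was 0.66 without the 10 cells with most Mptx1 UMIs, which held 44.3% of them, and its close paralog Mptx2 had no UMI in secretory cells.

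The list of antimicrobial and defence products had 8 of 18 measured genes higher at day 42 and none lower, against 2.57% and 0.778% of all genes, with a median of 0.87 against 0.068 over all genes. The 8 were Ang4, Retnlb, Slpi, Mptx1, Itln1, S100a8, S100a9 and Duox2. Of these, S100a8 and S100a9 stayed under 50 CPM at days 0 and 42, the level asked of genes in the shares over all genes. The calgranulins S100a8 and S100a9 are neutrophil and stressed-epithelium genes. S100a8 stood at 0.284 CPM at day 0, 272 CPM at day 7 and 45.3 CPM at day 42 and S100a9 at 0 CPM at day 0, 484 CPM at day 7 and 49.5 CPM at day 42, and the 10 cells with most S100a9 UMIs held 98.3% of them at day 42. With cells thinned to 1000 UMIs, S100a9 was found in 14.7% of secretory cells and 20.4% of T cells at day 7, and in 1.92% and 5.56% at day 42. Unthinned, the shares were 45.7% and 32.2% at day 7 and 6.15% and 4.13% at day 42. The thinned shares in secretory cells were below those of T cells and the unthinned shares above, and the part of free RNA or other cells in them was not tested. Duox2, an oxidase that makes hydrogen peroxide at the epithelial surface, stood at 19.3 CPM at day 0, 350.0 CPM at day 7 and 51.2 CPM at day 42, and no T cell held it once thinned. In Colonocytes 7 of 15 measured genes of this list were higher, against 2.4% of all genes there, with a median of 0.89 against 0.038. Those were Lypd8, Sprr2a3, Wfdc18, Duoxa2, S100a8, S100a9 and Duox2. Lyz1, the Paneth cell lysozyme, stood at 91.3 CPM at day 0, 0 CPM at day 7 and 83.9 CPM at day 42 in secretory cells, with the 10 cells with most of it holding 89.0% of its day 42 UMIs.

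Genes of the crypt-base secretory cell did not move together. Reg4 stood at 2235 CPM (2186 to 2285) at day 0, 161 CPM (112 to 224) at day 7 and 5023 CPM (4897 to 5152) at day 42, a log2 ratio of 1.16 at day 42 and -3.71 at day 7. Without the 10 cells with most Reg4 UMIs the day 42 ratio was 0.95. Kit, the stem cell factor receptor that marks the same cells, stood at 78.0 CPM at day 0, 18.4 CPM at day 7 and 42.0 CPM at day 42. Its ratio was -1.63 at day 7, past -1, and -0.76 at day 42, which was not. The Notch ligand Dll1 stood at 41.5 CPM at day 0, 9.21 CPM at day 7 and 15.1 CPM at day 42, with a ratio of -1.04, and the ligand Dll4 at 37.6 CPM at day 0, 18.4 CPM at day 7 and 26.0 CPM at day 42 (-0.40). Cd44, an adhesion receptor also made by keratinocytes, was the other gene past 1, at 17.9 and 50.4 CPM at days 0 and 42. In all, 2 of 8 measured genes of the list were higher and 1 lower, against 2.57% and 0.778% of all genes, with a median of 0.47 against 0.068 over all genes.

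None of 16 measured transcription factors of the lineage reached 1 or -1 at day 42, against 2.57% of all genes higher and 0.778% lower, so a count of 0 is near the background. Their median was -0.062, against 0.068 over all genes. Atoh1, which sets secretory fate, stood at 294 CPM (277 to 313) at day 0, 82.9 CPM (49.1 to 131) at day 7 and 196 CPM (171 to 222) at day 42, a ratio of -0.57 at day 42. Spdef, which drives goblet cell maturation, stood at 96.4 CPM at day 0, 115 CPM at day 7 and 133 CPM at day 42 (0.42), and Foxa3 at 134 CPM at day 0, 147 CPM at day 7 and 126 CPM at day 42 (-0.08). Xbp1, which expands the secretory apparatus, stood at 271 CPM at day 0, 345 CPM at day 7 and 272 CPM at day 42. Counts of these factors were low per cell, with Spdef found in 49.2% of day 42 cells unthinned.

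Genes that fold and glycosylate mucins were read against 2.57% of all genes higher, 0.778% lower and a median of 0.068. Of 26 measured endoplasmic reticulum and unfolded protein response genes none reached 1, though 22 were above 0, with a median of 0.40. Pdia5, a disulfide isomerase, stood at 84.2 CPM at day 0, 23.0 CPM at day 7 and 129 CPM at day 42 (0.56 at day 42). Ern2, the goblet cell form of the stress sensor IRE1, stood at 208 CPM at day 0, 138 CPM at day 7 and 114 CPM at day 42 and was the lowest of the list at -0.81. In mucin glycosylation and sulfation 2 of 23 genes were higher, the sulfotransferase Chst4 (1.22, 15.9 and 50.4 CPM) and the galactosyltransferase B3galt5 (45.2 and 101 CPM, at the edge of the fold used), and the median was 0.23. Gcnt3 stood at 208 CPM at day 0, 359 CPM at day 7 and 181 CPM at day 42. Among goblet ion channels and transporters 1 of 9 was higher, Clca4a, at 5.69 and 23.5 CPM, with all UMIs in 10 or fewer cells. Best2 stood at 233 CPM at day 0, 184 CPM at day 7 and 183 CPM at day 42 and the chloride importer Slc12a2 at 1016 CPM at day 0, 898 CPM at day 7 and 724 CPM at day 42.

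**Figure D4:**
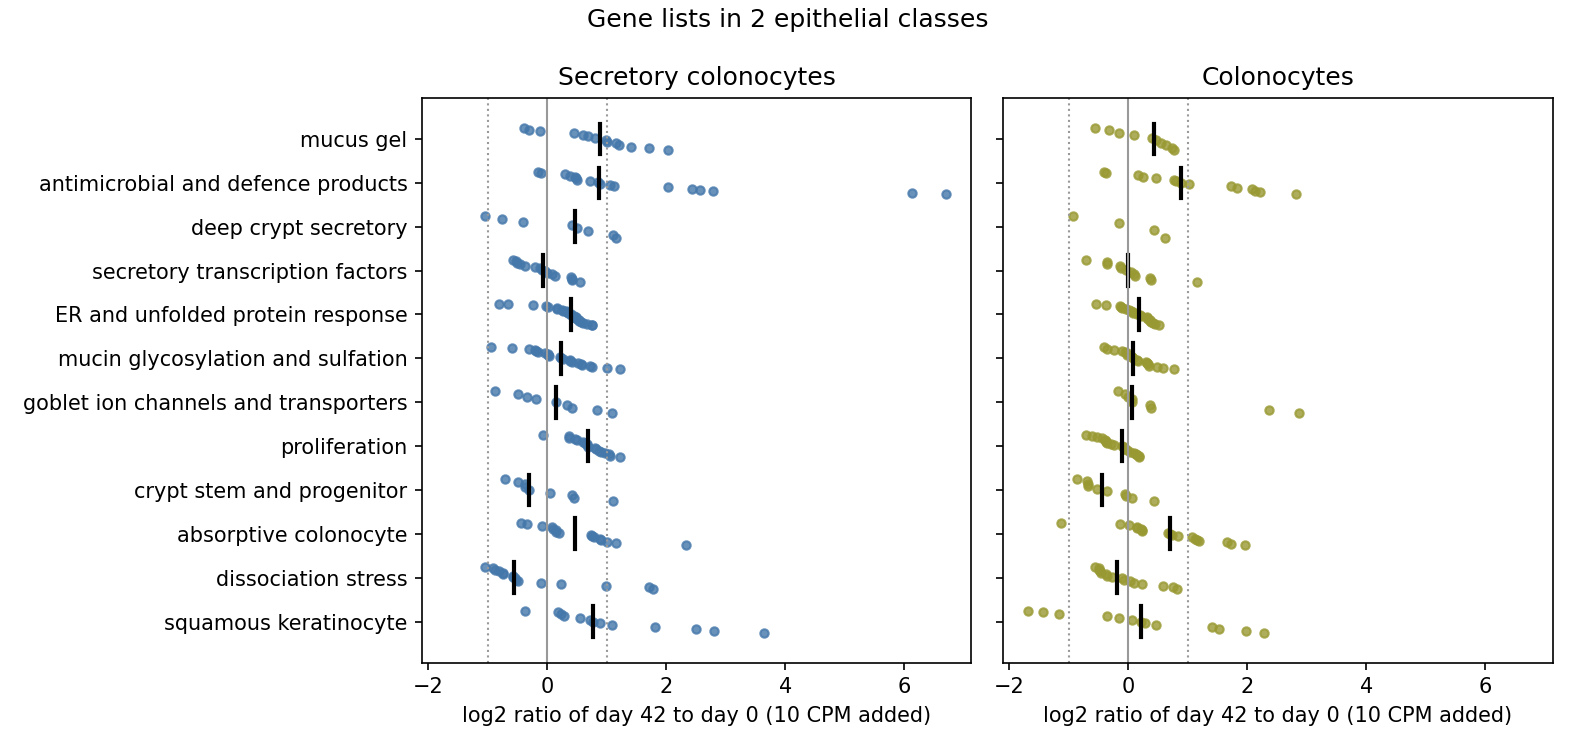
Log2 ratio of day 42 to day 0 with 10 CPM added (horizontal axis) for the measured genes of 12 lists, in secretory colonocytes (left) and Colonocytes (right), with 1 point per gene, a black bar at the median of lists with at least 5 measured genes and dotted lines at 1 and -1. Of these 12 lists, which do not include the wound and regeneration list, mucus gel (0.90) and antimicrobial and defence products (0.87) have the medians farthest to the right in secretory cells, and that of dissociation stress (-0.55) farthest to the left.

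A larger share of secretory cells held transcripts of dividing cells at day 42. Of cells thinned to 1000 UMIs, 14.1% (22 of 156, 9.05 to 20.6) held at least 2 of 11 mitosis genes, against 5.51% at day 0 (26 of 472, 3.63 to 7.97), and these intervals did not overlap. None of 34 did at day 7 (exact interval 0 to 10.3%). Colonocytes gave 7.74%, 6.51% and 7.96%. The proliferation antigen Mki67 stood at 86.5 CPM (77.0 to 96.8) at day 0 and 188 CPM (164 to 214) at day 42 in secretory cells, and had no UMI at day 7, which allows up to 13.8 CPM by the floor of 3 counts. Birc5, which acts at the mitotic centromere, stood at 44.1 CPM at day 0, 0 CPM at day 7 and 117 CPM at day 42, and the mitotic kinase Cdk1 at 24.2 CPM at day 0, 18.4 CPM at day 7 and 61.3 CPM at day 42. These 3 of 18 measured proliferation genes were past 1 at day 42, against 2.57% of all genes. The median of the list was 0.68, against 0.068 over all genes, and -0.10 over 21 genes in Colonocytes. The ratio of Mki67 was 1.04, and it was past 1 under 6 of 13 alternatives, which ranged from 0.47 in cells with no Reg4 UMI to 1.26 without the highest doublet scores. At 2000 UMIs per cell Mki67 was found in 22.2% of Reg4 cells (14.5 to 31.7) and 4.17% of the others (0.105 to 21.1) at day 42, and in 7.61% (4.83 to 11.3) and 1.40% (0.170 to 4.96) at day 0, and the intervals overlapped on both days.

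The other 12 of the 15 highest genes of day 42 had higher day 42 levels in Keratinocytes than in secretory cells, by 4.80 to 15.6 times. They were Ppbp, Krt6a, Ecm1, Calcb, Igfbp3, Psca, Ltf, Krt13, Anxa1, Krt14, Emp1 and Ly6d. Their log2 ratios were 2.28 to 4.25 in secretory cells and 0.92 to 2.76 in Colonocytes, and the 10 cells richest in a gene held 70.0% to 90.8% of them. Krt14, the basal keratin of squamous epithelium, stood at 266 CPM at day 0, 239 CPM at day 7 and 1561 CPM at day 42 in secretory cells. With cells thinned to 1000 UMIs, Krt14 was found in 8.90%, 20.6% and 35.3% of secretory cells and 8.21%, 38.9% and 46.7% of T cells at days 0, 7 and 42. Unthinned, the shares were 26.5%, 62.9% and 67.0% of secretory cells and 15.5%, 68.6% and 59.5% of T cells. The thinned shares of days 7 and 42 were below those of T cells. Summed over 8 keratinocyte keratins, the share of UMIs was 0.0845%, 0.0636% and 0.323% at days 0, 7 and 42 in secretory cells and 0.0775%, 0.241% and 0.183% in T cells, so the day 42 share was above that of T cells. What part free RNA or other cells had in the keratin signal was not tested. Without the 15, 0 and 18 secretory cells with over 0.5% of such keratins, an alternative chosen after seeing the data, 44 genes were higher at day 42 in place of 76, and 39 of the 44 were among the 76. In the same cells the ratios were 6.88 for Retnlb, 6.32 for Ang4, 2.87 for Slpi, 1.33 for Muc2, 1.87 for Clca1 and 1.51 for Spink4, as large as with those cells, and 1.94 for Krt14, 2.06 for Krt6a and 0.95 for Krt13.

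Genes of the wound and regeneration list were higher beside those keratins. At day 42, 8 of 15 were past 1 (among them Ly6a, Anxa1, Clu and Cd44), against 2.57% of all genes, with a median of 1.11 against 0.068 over all genes. In Colonocytes 5 of 14 were, against 2.4% of all genes there, with a median of 0.89 against 0.038. Without the keratin-rich cells the median in secretory cells was 0.50. Anxa1, a membrane-repair annexin, stood at 84.8 CPM at day 0, 170.4 CPM at day 7 and 535 CPM at day 42 in secretory cells, and its ratio of 2.52 was 1.19 without the keratin-rich cells. Clu, a marker of revival stem cells, stood at 0.853 CPM at day 0 and 22.7 CPM at day 42, from 27 UMIs in 10 or fewer cells.

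The 15 genes with the lowest ratios at day 42 had log2 ratios of -1.58 to -0.99. Cyr61, a matrix-associated signalling protein, stood at 225 CPM at day 0, 161 CPM at day 7 and 68.8 CPM at day 42 (-1.58 at day 42). Thbs1, the matrix glycoprotein thrombospondin, stood at 848 CPM (818 to 879) at day 0, 92.1 CPM (56.3 to 142) at day 7 and 285 CPM (255 to 317) at day 42 (-1.54), and in Colonocytes at 97.3 CPM at day 0, 21.3 CPM at day 7 and 49.6 CPM at day 42 (-0.85). The muscle actin gene Acta1 stood at 239.8 CPM at day 0, 23.0 CPM at day 7 and 85.6 CPM at day 42 (-1.39, and 0.20 in Colonocytes), and Srf, the serum response factor itself, at 116 CPM at day 0, 46.1 CPM at day 7 and 47.8 CPM at day 42 (-1.13). Atp12a, a colonic proton and potassium pump, stood at 158 CPM at day 0, 161 CPM at day 7 and 48.7 CPM at day 42 (-1.52, and -0.10 in Colonocytes). The others were Egr2, Rasd1, Trp53inp1, Arl4a, Rab11fip1, Lars2, Tcim, Jun, Itpr1 and Cldn4. In the stroma and vessel list 2 of 2 measured genes, Col3a1 and Dcn, were lower too, with ratios from -2.59 to -1.90. In Colonocytes 4 of 4 were lower. The shares of all genes lower were 0.778% in secretory cells and 0.534% in Colonocytes.

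These differences stood beside the difference in RNA quality and in dissociation genes. Jun, an immediate early gene, stood at 2258 CPM at day 0, 1419 CPM at day 7 and 1093 CPM at day 42 (-1.04, and -0.50 in Colonocytes). The dissociation stress list had 1 of 16 genes lower (Jun) and 2 higher, the heat shock genes Hspa1a and Hspa1b, against 0.778% and 2.57% of all genes, with a median of -0.55 and -0.19 in Colonocytes. In the cells with at most 20% mitochondrial UMIs and enough depth the ratios were -1.45 for Thbs1 and -1.06 for Jun. What part dissociation had in them was not tested.

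Set beside Colonocytes of the same libraries, the change of day 42 was larger in secretory cells for Retnlb (log2 difference 6.33), Ang4 (5.37) and Slpi (2.98). Cst6, a cysteine protease inhibitor of squamous epithelium, had a difference of 4.53, but 96.4% of its day 42 UMIs in secretory cells lay in 10 cells. Without the keratin-rich cells its secretory ratio was -2.27 in place of 0.64, beside -3.89 in Colonocytes. Ecm1 (1.67), Krt1 (1.96) and Krtdap (1.90), of squamous epithelium, and the histone gene Hist1h2ap (1.82) made up the 8 highest. The differences of Krt1 and Krtdap turned below 0 without the cells with the highest doublet scores, and that of Ecm1 without the keratin-rich cells. The change was smaller in secretory cells for Clca4b (-2.64), a surface colonocyte gene that stood at 5.18 CPM at day 0, 949 CPM at day 7 and 101 CPM at day 42 in Colonocytes and at 0 CPM at day 0, 36.8 CPM at day 7 and 1.68 CPM at day 42 in secretory cells. Clca4a (-1.27), its close paralog, went the same way, though reads of the pair may be shared and its difference was 0.19 against the Colonocytes cluster of 2254 cells alone. Acta1 (-1.59), Ly6g (-1.42), Atp12a (-1.42), Pde9a (-1.34), Trp53inp1 (-1.28) and Rhoc (-1.25) made up the 8 lowest. With 1 library per day these differences between the classes were not tested.

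At day 7 the secretory cells were few, 0.243% of all cells (0.170 to 0.338) against 4.34% (3.97 to 4.74) at day 0 and 1.53% (1.32 to 1.77) at day 42. Among columnar cells, the Colonocytes, secretory and enteroendocrine cells together, they were 11.1% (10.2 to 12.1) at day 0, 3.30% (2.31 to 4.55) at day 7 and 10.7% (9.22 to 12.2) at day 42. The share of columnar cells was thus lower at day 7 alone, and the intervals of days 0 and 42 overlapped. The first are shares of all cells captured from colon and anus together, and how dissection and dissociation bore on them was not tested. The 35 cells leaned on 6 with over 15000 UMIs, which held 57.0% of all UMIs. Of 3035 genes that reached 50 CPM, 155 (5.11%) were higher than at day 0 and 384 (12.7%) lower, with a median of -0.22. Median-of-ratios size factors gave 247 and 287, and totals without mitochondrial and ribosomal protein genes 167 and 747, so lower genes outnumbered higher ones under each of these scalings.

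In the mucus gel list 9 of 13 measured genes were higher and Muc3 lower, with a median of 1.28, against 5.11% and 12.7% of all genes and a median of -0.22. Without the 6 large cells, a subset chosen after seeing the data, the log2 ratios to day 0 were 2.11 for Muc2, 1.91 for Zg16, 1.68 for Tff3 and 1.70 for Fcgbp. Of the 13 list genes 6 were then higher and Agr2 lower, and the median was 0.996. Over all genes compared without those cells, 263 were higher and 1130 lower, with a median of -0.57. Spink4, with 83.9% of its UMIs in the 6 large cells, went from 1.25 to -0.17. Slpi had a ratio of 5.28 and Saa1 of 3.79 without them. Saa1 stood at 298 CPM at day 0, 4412 CPM at day 7 and 502 CPM at day 42 in secretory cells and at 364 CPM at day 0, 5625 CPM at day 7 and 1449.5 CPM at day 42 in Colonocytes.

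Defence genes at day 7 had 10 of 19 higher and 5 lower, against 5.11% and 12.7% of all genes. Cxcl2, a chemokine for neutrophils, stood at 0 CPM at day 0, 295 CPM at day 7 and 6.72 CPM at day 42, and Socs3, a feedback inhibitor of STAT3 signalling, at 9.39 CPM at day 0, 152 CPM at day 7 and 12.6 CPM at day 42. The 6 large cells held 85.3% of the Slpi UMIs, but 9.38% of those of Cxcl2, 5.26% of those of Duox2 and 4.76% of those of S100a9. They held 81.8% of those of Socs3, whose ratio without them was 1.94. Thinned to 1000 UMIs, Cxcl2 was found in 5.88% of secretory cells and 13.0% of T cells at day 7 (14.3% and 16.1% unthinned), and Socs3 in 11.8% and 13.9% (25.7% and 20.3% unthinned), and which cells made these RNAs was not tested. Duox2 was found in 35.3% of secretory cells and in no T cell (51.4% and 0% unthinned). Leukocyte genes at 20 CPM or more numbered 4 at day 7, Lyz2, Retnlg, Tyrobp and Fcer1g, and the T cell gene Cd3e had no UMI. In the deep crypt list 3 of 7 were lower (Reg4, Kit and Dll1), and Atoh1 had a ratio of -1.71. Of 14 measured proliferation genes 10 were lower and none higher, with a median of -2.17. Reg4 was found in 1 and 3 of 34 day 7 cells in 2 random draws of 1000 UMIs per cell (2.94%, 0.0744 to 15.3, and 8.82%, 1.86 to 23.7), against 53.8% at day 0 and 61.5% at day 42 in the first draw (68.5% and 62.6% unthinned). In the first draw Zg16 was found in 82.4% at day 7 against 26.7% and 38.5%.

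Enteroendocrine and tuft markers took a small part of the UMIs of the class. None of 17 enteroendocrine genes reached 20 CPM in the day 42 and day 0 comparison. Of 12 Paneth genes, 7 had no UMI at days 0 and 42, among them the defensin Defa24. The 3 measured were Lyz1, Ang4 and Itln1, of which Ang4 and Itln1 were higher at day 42, against 2.57% of all genes. Of 479, 35 and 179 cells, 0, 0 and 3 held at least 2 of 4 tuft cell markers, and without those 3 cells the count of genes higher at day 42 was 77. At least 5 of 18 tuft list genes were found in 0, 0 and 4 cells, with up to 15 in a cell of day 42. Tuft list genes took 0.00114%, 0.00599% and 0.0143% of UMIs at days 0, 7 and 42. At day 42, 10 cells held 92.9% of those UMIs. Stromal and vessel genes took 0.0145%, 0.00507% and 0.00109% of UMIs.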

How the data were processed

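The authors deposited raw counts, whole numbers, of 31053 genes in 37080 cells. Counts are UMIs, per the labels' protocols on the 3′ chemistry. Cell Ranger 3.0.2 and mm10 are named in the submitters' processing notes. The authors' deposited size factor is a ratio per cell and was used only to check that the cell table follows the matrix. Days and cell classes come from that table. The filter on cells and the naming method are not given in the sources used here. The members, gene lists and tests were chosen with earlier results of these data known.

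UMIs were summed per class and library (main setting) and given as CPM with exact intervals at 95% and a floor of 3 counts. Log2 ratios used a pseudocount of 10 CPM. With 1 pooled library per day there were no p-values, and genes past a log2 ratio of 1 or -1 are counted only as past that size. Genes that reached 50 CPM in a compared library were used, and list medians were taken over genes that reached 20 CPM. Of 382 listed genes in 23 lists, 379 were in the table. Named genes were list members, the 15 highest and 15 lowest ratios of day 42 to day 0 among genes that reached 100 CPM, the 20 highest against Colonocytes by the lowest of 3 libraries, and the 8 highest and 8 lowest differences of change between the classes. Rankings left out Xist, Y-linked, immunoglobulin, haemoglobin, ribosomal protein and mitochondrial genes.

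Libraries shared 44 (days 0 and 7), 40 (days 0 and 42) and 55 (days 7 and 42) barcodes, and 1 secretory barcode of days 0 and 42 was also seen in the other library. Scrublet's threshold marked 436, 0 and 292 cells at days 0, 7 and 42 (3.95%, 0% and 2.50%), so it did not work at day 7. Cells were kept, and the 5% with the highest scores, 25, 0 and 19 of them secretory, were left out as an alternative. Other alternatives were size factors by median of ratios, library totals that leave out mitochondrial and ribosomal protein genes, a pseudocount of 1 CPM, no filter on CPM, a filter on cells (1000 UMIs and 500 genes or more, no more than 20% mitochondrial), the mean of CPM per cell, thinning to 1000 UMIs, leaving out the 10 largest cells or the 10 cells richest in each gene, leaving out cells with 2 tuft markers, and Colonocytes clusters 2 and 7 alone. Chosen after seeing the data were leaving out cells over 0.5% keratins, leaving out 6 large cells of day 7, and cells with or without a Reg4 UMI alone. The steps were tested on simulated data. Tools were scanpy 1.11.5, scipy 1.17.1, numpy 2.4.6, matplotlib 3.10.9 and pandas 2.3.3 under Python 3.11.15.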

Additional observations from a re-analysis of the deposited data

How the results depend on the processing

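No paired analysis was possible because each day is 1 library. The limits are the single library per day, the 35 cells of day 7, and a median mitochondrial share that differed between days. Of the alternatives to counts, list medians and shares, 243 kept the value within the bounds used and 50 moved it, and of those for single genes 667 did, 598 moved and 7 turned the direction of a value past 1. Among single-gene log2 values under 1 as reported, 9 more alternatives changed the sign of 3 values: Atoh1 at day 42 (0.60 in cells with no Reg4 UMI), and Agr2 and Spdef at day 7 (to -1.84 and -0.66). Retnlb, Ang4, Slpi, Clca1 and Spink4 stayed past 1 at day 42 under every alternative run. So did Ppbp, Krt6a, Ecm1, Calcb, Igfbp3, Psca, Ltf, Anxa1, Krt14 and Emp1, whose day 42 levels were higher in Keratinocytes. Genes higher and lower at day 42 (76 and 23) and at day 7 (155 and 384) moved as follows, and where no value is given the count moved by less than 1.5 times. Median-of-ratios size factors gave 35 lower at day 42 and 247 higher at day 7. Totals without mitochondrial and ribosomal protein genes gave 70 and 747 lower at days 42 and 7. A pseudocount of 1 CPM gave 44 lower at day 42. No filter gave 143 and 49 at day 42 and 295 and 1208 at day 7, with more genes compared. Averaging the CPM of single cells gave 251 and 597 at day 7. At day 42 it gave 76 and 22, but only 43 and 11 of these were among the 76 and 23. Thinned cells gave 205 and 127, and 665 and 808. Leaving out the 10 largest cells gave 353 and 1128 at day 7, and leaving out the 6 large cells 263 and 1130. The 4 day 7 cells with a Reg4 UMI gave 284 higher, and cells without 206 higher and 178 lower, so that higher genes outnumbered lower ones. Cells without a Reg4 UMI gave 241 and 112 at day 42, and leaving out keratin-rich cells 44 higher. Against Colonocytes cluster 2 alone 223 genes were lower in every library and against cluster 7 alone 57, in place of 108, and without the 10 largest cells 70 were higher in place of 106. List medians at day 42 moved with totals without mitochondrial and ribosomal protein genes (deep crypt 0.060, absorptive 0.12), a pseudocount of 1 CPM (wound 1.44), without the highest Scrublet scores (wound 0.80, squamous 0.31), the mean per cell (antimicrobial 1.26, wound 0.72), thinning (deep crypt 0.067, intercrypt 0.83, cytokine -0.15), without the 10 largest cells (squamous 1.07) and without keratin-rich cells (wound 0.50, squamous 0.26). Cells with a Reg4 UMI gave mucus gel 1.23, absorptive 0.84 and wound 1.46. Cells without gave fate factors 0.25, deep crypt 0.058, absorptive 0.91, proliferation 0.088, interferon 0.73, wound 0.53 and squamous -0.18. The share of secretory cells among columnar cells was 9.31% at day 0 and 1.94% at day 7 under the filter on cells, in place of 11.1% and 3.30%. Of values past 1, directions turned for the difference of change of Krt1 (-0.33) and Krtdap (-0.15) without the highest Scrublet scores, of Ecm1 (-0.23) without keratin-rich secretory cells and of Clca4a (0.19) against cluster 7. They also turned for Spink4 at day 7 without the 10 largest (-0.23) or 6 large cells (-0.17), and for the lowest ratio of Reg4 to Colonocytes without the 10 largest cells (-0.017). The cause of these shifts was not tested.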
